A study of Mus musculus with 4 samples.

Results

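The chains described here are the signalling and coreceptor chains that surround the αβ T cell receptor: CD3γ (*Cd3g*), CD3δ (*Cd3d*), CD3ε (*Cd3e*), the ζ chain (*Cd247*), CD8α (*Cd8a*) and CD8β (*Cd8b1*). They were chosen by gene symbol from a list of 9 names, of which 6 matched a symbol among the 27998 genes of the count tables. The constant segments *Trac*, *Trbc1* and *Trbc2* were not matched by symbol or identifier and were not analysed here, so the use of one β constant segment against the other is not given.

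The cells were H-2Db-GP33 tetramer-positive CD8+ T cells from spleens taken on day 8 after infection with the Armstrong strain of LCMV (lymphocytic choriomeningitis virus). They came from 2 mixed bone marrow chimeras, in which WT marrow (B6.SJL, CD45.1) and *Bcl3*-/- marrow (CD45.2) had been given together to sub-lethally irradiated *Rag1*-/- hosts, which make no T or B cells of their own. Each chimera gave 1 WT and 1 *Bcl3*-/- library of 10x Genomics 3′ reads: WT1 and KO1 from chimera 1, WT2 and KO2 from chimera 2. Every library was thus infected, sorted with the same tetramer and drawn from a host shared with a library of the other genotype. Genotype, the CD45 allele and the donor strain cannot be told apart in this design, and the age of the animals is not given in the sources used here. Nor can fewer cells of a type be told apart from less RNA per cell in a summed count. The tetramer binds the receptor and the sort took CD8+ cells, so the finding of these chains in the cells is not itself a result. The libraries held 4941 (WT1), 8092 (WT2), 5366 (KO1) and 6494 (KO2) cells with medians of 3571, 2019, 3620.5 and 2948 UMIs (unique molecular identifiers, 1 per captured transcript). Between 37 and 63 barcodes were shared by any pair of libraries, against 36.0 to 71.3 for lists drawn at random from the kit's barcodes.

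The αβ receptor has almost no cytoplasmic tail and signals through the CD3 chains. CD3ε pairs with CD3γ in one dimer and with CD3δ in another, and a ζ homodimer completes the complex. All of them carry immunoreceptor tyrosine-based activation motifs, which the kinase Lck phosphorylates and ZAP-70 then binds. CD8αβ is the coreceptor of cytotoxic T cells, binds MHC class I and brings Lck to the receptor.

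*Cd3g*, *Cd3d* and *Cd3e* lie side by side on chromosome 9 (GRCm38, GENCODE vM21). *Cd3g* spans 44969572 to 44980431 on the minus strand, *Cd3d* 44981786 to 44987339 on the plus strand and *Cd3e* 44998740 to 45009627 on the minus strand. The starts of *Cd3g* and *Cd3d* are 1355 bases apart and face away from each other, whereas that of *Cd3e* is 27841 bases from that of *Cd3d*. *Cd8b1* (71322788 to 71337494) and *Cd8a* (71373427 to 71379173) are neighbours on the plus strand of chromosome 6, and *Cd247* (165788681 to 165877277) is on the plus strand of chromosome 1. The 250 bases before the RefSeq start of each CD3 gene are shown because these neighbours differed in their response to genotype. They are from RefSeq (GRCm38.p6), 5′ to 3′ on the strand of the gene. The letters ACTTCC are in capitals, as 1 exact form of the sites that ETS factors bind.
Cd3g, chr9:44980432-44980681, minus strand: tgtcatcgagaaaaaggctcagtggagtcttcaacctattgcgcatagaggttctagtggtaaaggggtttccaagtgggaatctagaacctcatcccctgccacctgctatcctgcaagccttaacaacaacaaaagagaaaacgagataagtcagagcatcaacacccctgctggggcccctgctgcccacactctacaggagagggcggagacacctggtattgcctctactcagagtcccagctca
Cd3d, chr9:44981536-44981785, plus strand: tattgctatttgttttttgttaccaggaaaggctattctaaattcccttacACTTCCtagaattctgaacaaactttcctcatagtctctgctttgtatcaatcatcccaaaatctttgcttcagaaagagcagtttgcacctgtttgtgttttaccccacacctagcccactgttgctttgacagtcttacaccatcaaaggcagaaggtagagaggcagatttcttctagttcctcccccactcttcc
Cd3e, chr9:45009612-45009861, minus strand: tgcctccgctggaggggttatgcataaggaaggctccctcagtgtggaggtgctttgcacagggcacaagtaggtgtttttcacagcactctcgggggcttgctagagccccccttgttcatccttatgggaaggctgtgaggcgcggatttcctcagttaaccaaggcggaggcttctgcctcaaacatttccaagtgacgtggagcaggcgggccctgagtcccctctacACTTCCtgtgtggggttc
The GENCODE gene begins further upstream than the RefSeq start at *Cd3e*, so that the last 16 bases of its window lie inside the GENCODE gene and the capitals span its start. The search ran on both strands of these windows. GGAAGT or its reverse complement ACTTCC was found in the windows of *Cd3d*, *Cd3e* and *Cd247*, and not in those of *Cd3g* and *Cd8a*. It occurs in 19.7% of 32851 RefSeq promoters of this length, and was added after the sequences had been seen. Other forms of ETS sites, such as the shorter GGAA within it, were not searched. A window without GGAAGT may thus hold an ETS site. The TATA box TATAAA (12.4% of promoters), the RUNX core TGTGGT (14.05%) and the E box CAGCTG (13.0%) had no match in any of these windows. Nor did an exact form of the NF-κB site (0.140% of promoters). Other forms of the NF-κB site were not searched, so these windows may still hold such a site. The GC content was 51.6%, 41.2% and 57.2% for *Cd3g*, *Cd3d* and *Cd3e*. *Cd8b1* was not searched.

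Cells were first grouped into clusters within each library. T cell clusters held 4625, 7716, 4946 and 6057 cells (WT1, WT2, KO1, KO2), between 92.2% and 95.4% of the cells. Among them, MPEC-gene clusters were led by *Tcf7*, *Id3*, *Ccr7* and *Dapl1*, genes of memory precursor effector cells (MPECs) and naive T cells. Terminal effector-like clusters were led by genes such as *Klrg1*, *Cx3cr1* and *Zeb2*, cycling clusters by cell division genes, and interferon-stimulated clusters by *Ifit1*, *Isg15* and related genes. Clusters that met no list are called unnamed effector clusters and were the most numerous, with 50.5% to 60.5% of cells; in KO2 they included 339 cells led by cell cycle genes. The 6 chains were kept out of the genes used for clustering and were not among the 2000 most variable genes of any library. B-like clusters held 105, 120, 134 and 127 cells.

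*Bcl3*, which encodes an atypical IκB protein that acts with NF-κB p50 and p52 in the nucleus, was looked at first. Its level in T cell clusters was 29.3 (WT1), 108 (WT2), 21.5 (KO1) and 84.6 (KO2) CPM (UMIs of a gene over all UMIs of the summed cells, times 1000000). The libraries of chimera 2 were thus higher than those of chimera 1 in both genotypes, and the groups overlapped. The difference of *Bcl3*-/- from WT was -0.39 on the log2 scale (edgeR adjusted p = 0.835), and -0.40 with chimera as a block (edgeR adjusted p = 0.000506). The sources used here do not say whether the 3′ reads lie in the deleted part of the gene, so these counts do not check the genotype labels.

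*Cd3e* was higher in both *Bcl3*-/- libraries, and was the 1 of the 6 chains called between genotypes. This count stands beside 0.27% of 11092 genes called in T cell clusters in either direction, at an edgeR adjusted p of at most 0.05. CD3ε is the CD3 chain shared by both heterodimers of the complex. Its level was 508 (WT1), 433 (WT2), 852 (KO1) and 983 (KO2) CPM, from 9372, 7577, 16886 and 19118 UMIs. Both *Bcl3*-/- libraries lay above both WT libraries, as they did for 46.8% of genes in one direction or the other. The group means were 470 ± 52.9 and 918 ± 92.6 CPM (SD, n = 2 each), and the ratio within a chimera was 1.68 in chimera 1 and 2.27 in chimera 2. The edgeR estimate was 0.95 ± 0.13 on the log2 scale (SE, adjusted p = 0.0487), a fold of 1.93. With chimera as a block it was 0.96 (edgeR adjusted p = 1.30e-12), where 12.9% of genes were called. Only 2 pairs of libraries stand behind that p, and the test takes the variance of a gene in part from other genes. The same limit holds for the other p-values given with the block. Over all cells, without regard to clusters, the estimate for *Cd3e* was 0.94 (edgeR adjusted p = 0.0408, 0.363% of 11566 genes called, with the block 9.65%).

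The call without the block lay close to its threshold. Left out of the fit in T cell clusters, WT2 (edgeR adjusted p = 0.155, log2 0.81) and KO2 (edgeR adjusted p = 0.0580, log2 0.89) each ended it. Across all 24 other settings the log2 difference stayed between 0.81 and 1.09, and the call held in 17 of them. Of these settings, 14 were planned. The rest were fits within single states, without and with the block, added after the data had been seen. Among the planned ones the call also ended with mitochondrial UMIs limited to 5%, with 30 principal components or without a low-count filter. Since n = 2 per genotype, an exact permutation test of a single value cannot give a two-sided p below 0.333.

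**Figure D1:**
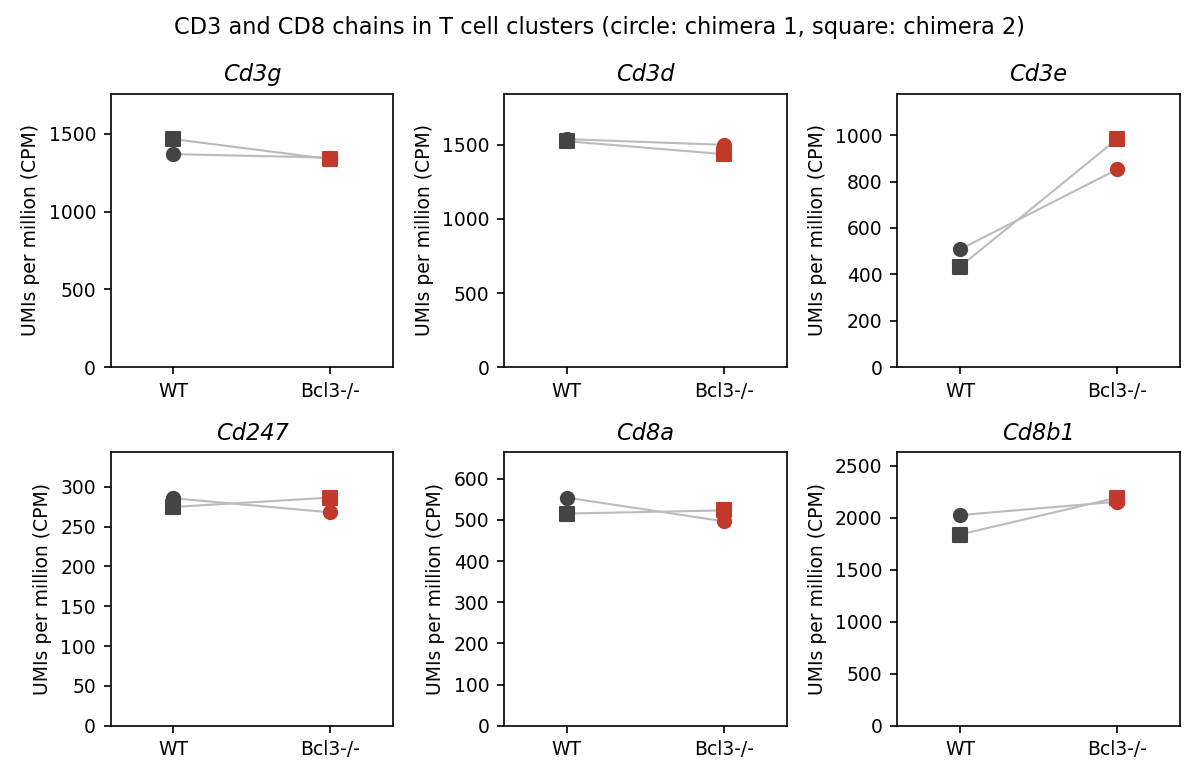
CPM (vertical axis, from 0) of each chain in T cell clusters, by genotype; each point is a library, circles are chimera 1, squares chimera 2, and grey lines join the libraries of a chimera. *Cd3e* rises from 508 and 433 to 852 and 983, while the levels of the other 5 chains lie close together.

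The difference in *Cd3e* was present in each T cell state. In terminal effector-like clusters the log2 of *Bcl3*-/- over WT was 0.71 in chimera 1 and 1.12 in chimera 2 (edgeR estimate 0.89, adjusted p = 0.0218, 0.588% of genes called). In interferon-stimulated clusters it was 0.78 and 1.37 (edgeR estimate 1.01, adjusted p = 0.00463, 0.634% called), and in MPEC-gene clusters 0.45 and 1.14 (edgeR estimate 0.81, adjusted p = 0.0367, 0.586% called). Cycling clusters, at 0.77 and 1.05 (edgeR estimate 0.87, adjusted p = 0.0867, 0.054% called), and unnamed effector clusters, at 0.70 and 1.16 (edgeR estimate 0.90, adjusted p = 0.0705, 0.203% called), did not pass without the block. All of these passed with it, at edgeR adjusted p between 7.90e-19 and 0.00172, where 2.58% (terminal effector-like), 1.27% (interferon-stimulated), 1.25% (MPEC-gene), 2.95% (cycling) and 7.58% (unnamed effector) of genes were called. In every state the *Bcl3*-/- libraries were above the WT libraries within that state. Terminal effector-like clusters themselves held 22.3% and 16.2% of *Bcl3*-/- cells against 8.99% and 11.9% of WT cells. These tests by state were added after the data had been seen.

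At equal depth, *Cd3e* was also found in more cells. After each cell was thinned to 1000 UMIs, which left out 20, 210, 5 and 13 T cells with fewer, a *Cd3e* UMI was found in 39.3% (exact 95% interval 37.8 to 40.7) of T cells in WT1 and in 35.4% (34.3 to 36.5) in WT2. In KO1 it was found in 56.2% (54.8 to 57.6) and in KO2 in 62.2% (61.0 to 63.4). Without thinning the shares were 82.4%, 59.5%, 94.2% and 92.9%. Cells with at least 3 *Cd3e* UMIs made up 1.95%, 0.959%, 5.83% and 8.65% of thinned T cells (WT1, WT2, KO1, KO2). B-like cells, which should lack CD3ε, had a *Cd3e* UMI in 10.5%, 4.46%, 14.9% and 16.5% of thinned cells, with medians of 2297, 2025.5, 2901 and 2637 UMIs before thinning. Their *Cd3e* level followed the genotype of the library as well, at 108 and 72.9 CPM in WT and 218 and 199 CPM in *Bcl3*-/-. The intervals cover counting error only.

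**Figure D2:**
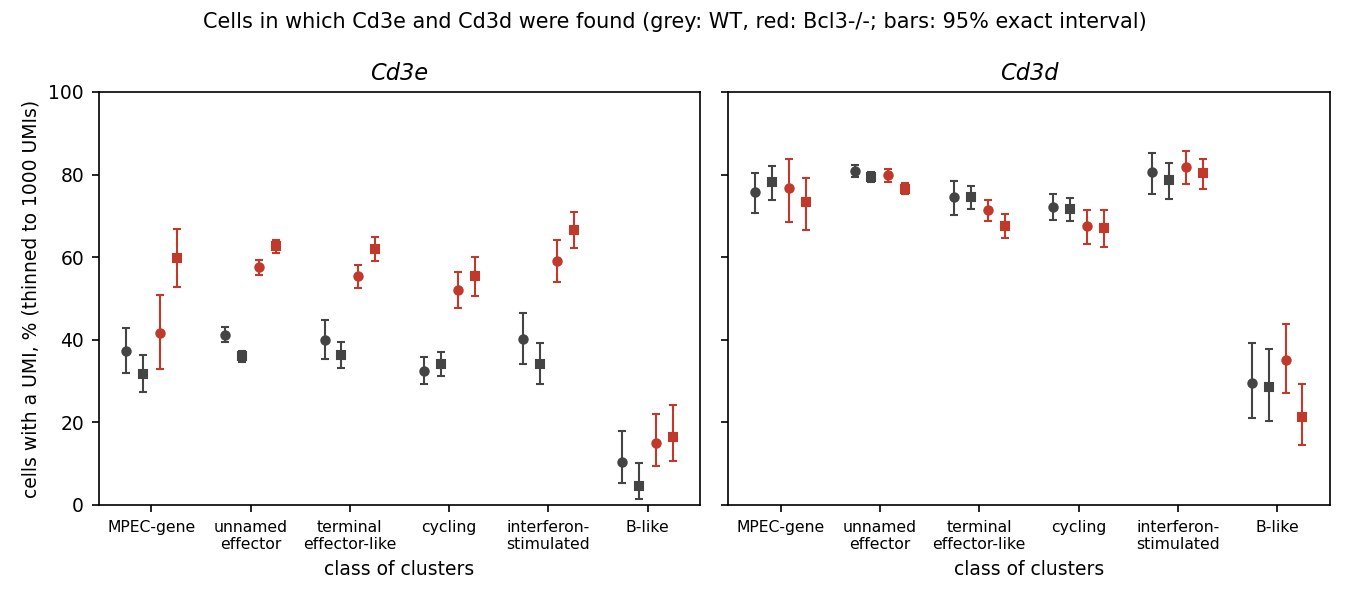
Share of cells with a *Cd3e* (left) or *Cd3d* (right) UMI after thinning to 1000 UMIs, in percent, for 5 classes of T cell clusters and for B-like clusters; grey is WT, red *Bcl3*-/-, circles chimera 1, squares chimera 2, and bars the exact 95% interval of counting. For *Cd3e* both *Bcl3*-/- points lie above both WT points in each T cell class, and for *Cd3d* they do not.

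None of the other CD3 chains was called. *Cd3g*, whose product pairs with CD3ε, was at 1370.5, 1467, 1348 and 1338 CPM (WT1, WT2, KO1, KO2), a difference of -0.09 ± 0.11 on the log2 scale (SE, edgeR adjusted p = 0.772). *Cd3d*, the other partner, was at 1539, 1524, 1499.9 and 1437 CPM, a difference of -0.07 ± 0.11 (SE, edgeR adjusted p = 0.830). For both genes the *Bcl3*-/- libraries lay just below the WT libraries, and the estimates were smaller than their standard errors. *Cd247*, the ζ chain, was at 285, 275, 268 and 286 CPM with overlapping groups (log2 -0.03 ± 0.09, edgeR adjusted p = 0.926). The log2 ratio of *Cd3e* to *Cd3d* within a library, which is free of library scaling, was -1.60 and -1.82 in WT and -0.82 and -0.55 in *Bcl3*-/-, higher by 0.78 in chimera 1 and 1.27 in chimera 2 (exact permutation p = 0.333, the smallest that 2 against 2 can give). That of *Cd3g* to *Cd3d* was -0.17 and -0.06 against -0.15 and -0.10, with overlapping groups.

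Reads of *Cd247* are less certain than those of the other chains. Of the 98-base windows in the last 500 bases of its transcripts, 48.2% were shared with *Pou2f1*, which overlaps it on the opposite strand, against 0% for the other 5 chains. Whether the counting used strand is not given in the sources used here. In the same annotation an antisense gene, *Gm48719*, and the unclassified *Gm48720*, on the strand of *Cd3e*, overlap *Cd3e*. Their reads were not told apart from those of *Cd3e* here.

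**Figure D3:**
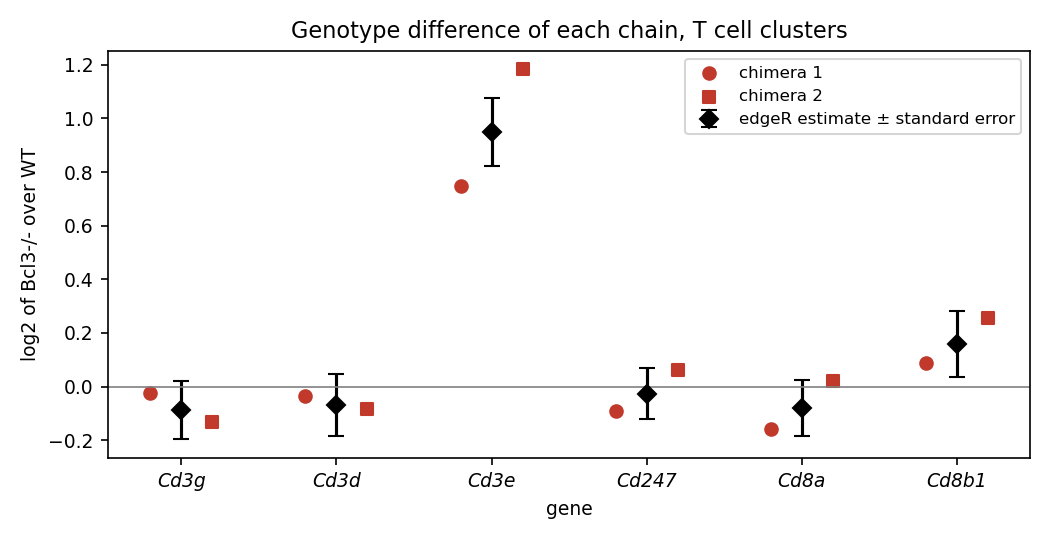
log2 of the *Bcl3*-/- over WT level in T cell clusters (vertical axis) for the 6 chains; circles are chimera 1, squares chimera 2 and black diamonds the edgeR estimate with its standard error. The edgeR estimate of *Cd3e* stands at 0.95 and those of the other chains between -0.09 and 0.16, while the values of single chimeras for these chains lie between -0.16 and 0.25.

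Among the tested genes around *Cd3e*, which include *Cd3g* and *Cd3d*, no other had a positive estimate in *Bcl3*-/-. Within 200000 bases on either side, 7 other genes passed the filter on low counts. Of these, 0 were called by edgeR without the block and 1 with it. Over all 11092 genes tested, 0.27% were called without the block and 12.9% with it. The estimates of the 7 genes ran from -0.36 to -0.04 on the log2 scale. *Jaml*, an adhesion molecule of the junctional family, was at 44.1, 74.5, 36.4 and 57.1 CPM (edgeR log2 -0.36, adjusted p = 0.577, with the block 0.00377). *Atp5l*, a subunit of the mitochondrial ATP synthase, was at 1073, 1096, 1018 and 953 CPM (edgeR log2 -0.15, adjusted p = 0.612). *Kmt2a*, a histone methyltransferase, and *Ube4a*, a ubiquitin ligase, differed by -0.04 and -0.09.

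**Figure D4:**
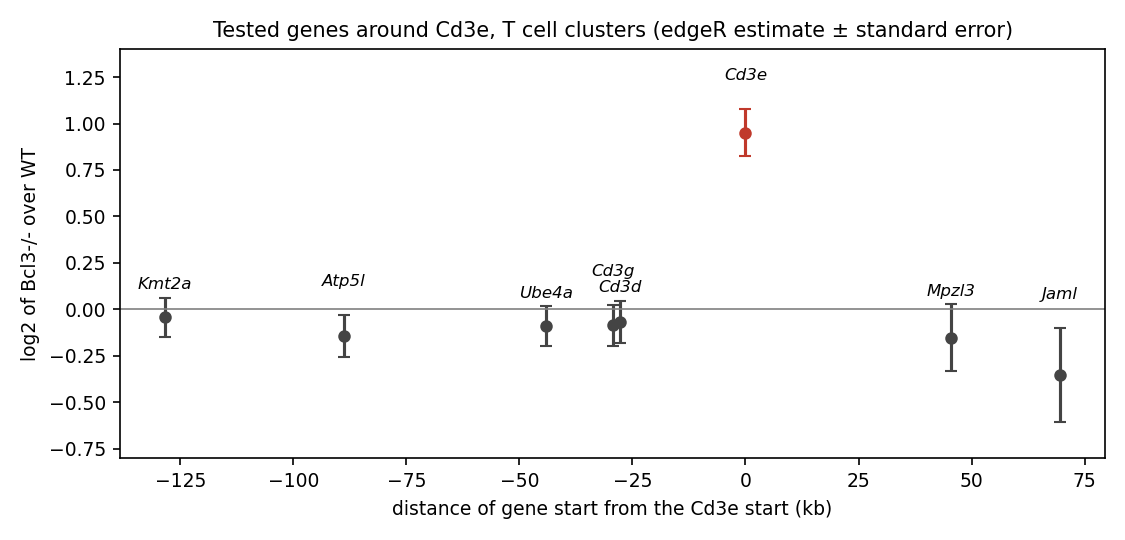
log2 of *Bcl3*-/- over WT (vertical axis, edgeR estimate with standard error) in T cell clusters for *Cd3e* and the 7 other tested genes near it, against the distance of each gene's start from that of *Cd3e* in kb. *Cd3e* is at 0.95 and the 7 others lie between -0.36 and -0.04.

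Set beside all genes, the size of the *Cd3e* difference was uncommon among abundant transcripts. Of 11092 genes tested in T cell clusters, 355 differed at least as far in either direction. Of the 472 with a mean of at least 300 CPM, 8 did so, *Cd3e* included. Among the others were *Rpl23a-ps3*, *Rps27rt*, *Hist1h2ap* and *Bin2*, named after their values were seen. The first 3 belong to ribosomal protein or histone families with near-identical copies. Whether their reads were told apart from those of such copies was not tested. *Bin2*, a membrane-shaping protein of leukocytes, was at 217, 189, 359 and 503 normalized CPM (edgeR log2 1.09, adjusted p = 0.0783).

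Neither CD8 chain was called, and the ratio between them was lower in both *Bcl3*-/- libraries. *Cd8a*, which can also form homodimers, was at 554 (WT1), 515 (WT2), 496 (KO1) and 523 (KO2) CPM, with overlapping groups (edgeR log2 -0.08 ± 0.10 SE, adjusted p = 0.779). *Cd8b1*, whose product reaches the surface only in a pair with CD8α, was at 2025, 1838, 2154 and 2193 CPM, with both *Bcl3*-/- libraries above both WT libraries (edgeR log2 0.16 ± 0.12 SE, adjusted p = 0.606, with the block 0.152). The log2 ratio of *Cd8a* to *Cd8b1* was -1.87 and -1.84 in WT and -2.12 and -2.07 in *Bcl3*-/- (WT1, WT2, KO1, KO2). The difference was -0.25 in chimera 1 and -0.23 in chimera 2, with a mean of -0.24 against SDs of 0.02 and 0.03 within the groups (exact permutation p = 0.333, two-sided, the smallest possible). By state it was -0.22 in unnamed effector, -0.29 in cycling, -0.18 in interferon-stimulated and -0.41 in MPEC-gene clusters. In terminal effector-like clusters the groups overlapped, with a difference of 0.04 (exact permutation p = 0.667).

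Nearly every T cell carried transcripts of the complex. In thinned T cells the median number of the 6 chains found was 3, 3, 4 and 4 (WT1, WT2, KO1, KO2), and at least 1 CD3 chain was found in 97.2% to 97.8% of cells. No chain was found in 0.282% to 0.413%. A CD8 chain was found in 90.6%, 87.4%, 90.4% and 90.8% of cells, and *Cd8a* without *Cd8b1* in 5.78%, 6.83%, 4.76% and 4.60%. The share with all 4 CD3 chains was 5.80% and 4.81% in WT and 7.49% and 8.39% in *Bcl3*-/-. B-like cells, which should lack these chains, give the background, whose source (free RNA or doublets) was not tested. In those of the same libraries *Cd3d* was found in 29.5%, 28.6%, 35.1% and 21.3% of thinned cells, against 78.4%, 77.6%, 76.6% and 74.5% of T cells, and *Cd8b1* in 41.9%, 29.5%, 41.8% and 29.9%, against 84.8%, 80.6%, 85.6% and 86.2%.

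The chains were next compared across T cell states. Each state was compared with the unnamed effector clusters of the same library, and a gene was counted when it was past 1.5-fold in one direction in 4 of 4 libraries. Clusters are defined from the same cells, so these values are a description with no test. By this rule 0 of the 6 chains were counted in any state, where 3.14% of 5001 genes were counted for MPEC-gene, 0.94% for terminal effector-like, 7.06% for cycling and 1.64% for interferon-stimulated clusters. The median over the chains was -0.20, -0.11, -0.30 and 0.06 on the log2 scale in these states, against -0.02, -0.05, 0.00 and -0.04 over all 5001 genes.

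Cycling clusters were lower for *Cd3g* (-0.35 ± 0.04, mean log2 and SD over 4 libraries), *Cd3d* (-0.37 ± 0.04), *Cd3e* (-0.28 ± 0.05), *Cd8b1* (-0.32 ± 0.07) and *Cd247* (-0.16 ± 0.05), each in 4 of 4 libraries. Of all 5001 genes, 65.9% lay on one side in 4 of 4 libraries in cycling clusters, 42.1% in MPEC-gene, 38.4% in terminal effector-like and 30.1% in interferon-stimulated clusters. In cycling clusters *Cd8a* stayed near the reference, at -0.02 ± 0.04. Cells in cycling clusters had the highest UMI medians of the T cell classes, 5153, 2778, 5583.5 and 4563. The part of depth in the lower levels of cycling clusters was not tested. In MPEC-gene clusters *Cd8b1* (-0.34 ± 0.09), *Cd3e* (-0.29 ± 0.11), *Cd3g* (-0.27 ± 0.10) and *Cd3d* (-0.13 ± 0.11) were lower in 4 of 4 libraries. In terminal effector-like clusters *Cd3d* (-0.25 ± 0.12) and *Cd3g* (-0.24 ± 0.15) were lower in 4 of 4, while *Cd3e* was at 0.03 ± 0.02. The genotypes stood apart in these means: *Cd3g* was at -0.08 and -0.15 in WT and -0.33 and -0.40 in *Bcl3*-/-, and *Cd3d* at -0.13 and -0.18 against -0.36 and -0.34. Compared directly within terminal effector-like clusters, *Bcl3*-/- over WT was -0.23 and -0.40 for *Cd3g* in the 2 chimeras (edgeR adjusted p = 0.396, with the block 0.0628). For *Cd3d* it was -0.22 and -0.25 (edgeR adjusted p = 0.536, with the block 0.154), and neither gene was called. In interferon-stimulated clusters *Cd8a* (0.29 ± 0.09), *Cd3g* (0.19 ± 0.07) and *Cd3d* (0.13 ± 0.07) were higher in 4 of 4.

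Within each library *Cd3g* and *Cd8a* were highest in interferon-stimulated clusters. The order of *Cd3g* among terminal effector-like, MPEC-gene and cycling clusters varied between libraries and between genotypes. *Cd8a* was lowest in terminal effector-like clusters in both WT libraries (-0.20 and -0.39 against unnamed effector clusters), and stood at 0.05 and 0.00 there in *Bcl3*-/-. *Cd8b1* and *Cd3e* were lowest in MPEC-gene and cycling clusters in every library, and the means of these 2 states did not differ beyond their SDs.

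**Figure D5:**
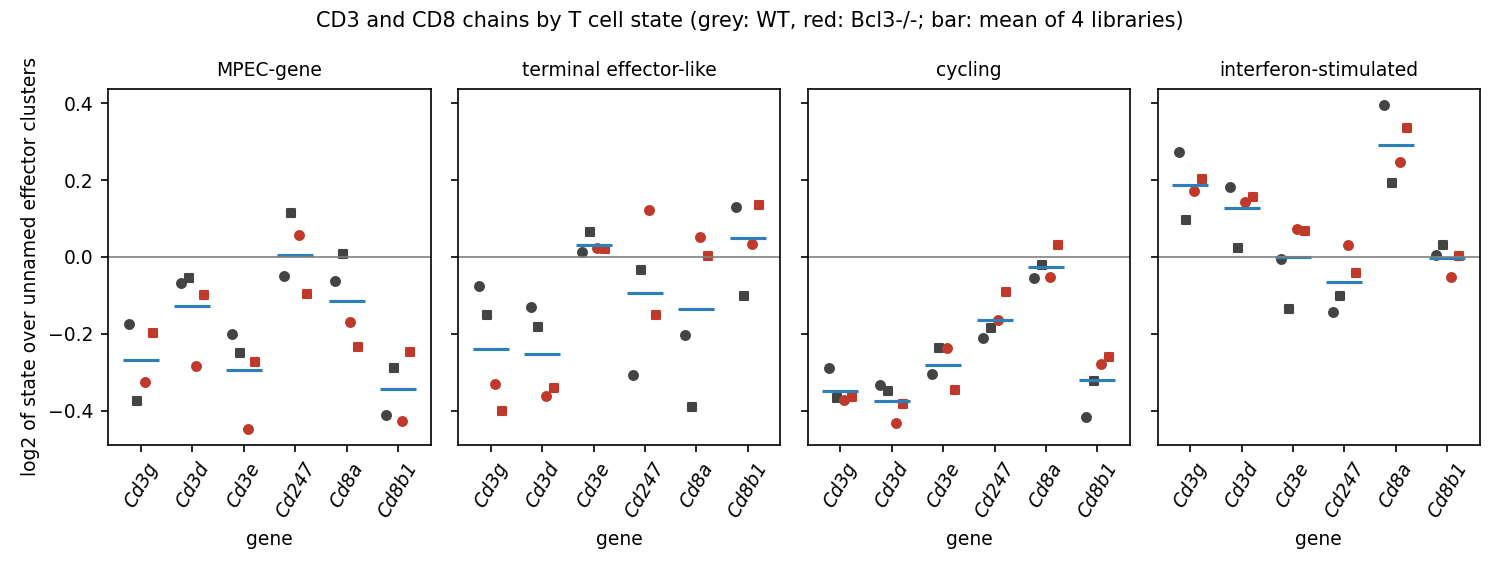
log2 of each state over the unnamed effector clusters of the same library (vertical axis) for the 6 chains, in 4 panels by state; points are libraries (grey WT, red *Bcl3*-/-, circles chimera 1, squares chimera 2) and blue bars the mean of 4 libraries. In cycling clusters 5 chains lie below 0 in every library, and in no panel does a chain pass 1.5-fold in every library.

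MPEC-gene clusters also carried *Cd4*, the coreceptor of helper T cells. Its level there was 19.1, 24.4, 49.9 and 21.7 CPM (WT1, WT2, KO1, KO2), from 22, 23, 25 and 14 UMIs, against 0.875, 1.92, 0.948 and 0.747 CPM in unnamed effector clusters. In KO1 it was among the 10 leading genes of the cluster. The 6 markers of CD4 T cells summed to 155, 151, 195 and 187 CPM in MPEC-gene clusters, with *Tnfrsf4* the most abundant (84.2, 84.9, 91.7 and 79.0 CPM), and to 34.6, 35.7, 27.7 and 35.1 CPM in T cell clusters as a whole. The sort took CD8+ tetramer-positive cells, which should leave CD4 T cells out. The part of any such cells in the lower *Cd8b1* of MPEC-gene clusters was not tested.

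Markers of other cell types were present at low levels in T cell clusters. The 10 B cell markers summed to 403, 387, 381 and 285 CPM, with *Cd74* the most abundant (157, 157, 144 and 111 CPM). The 13 myeloid markers, which matched 14 rows of the counts by symbol, summed to 840.2, 718, 987 and 745 CPM, with *Cst3* the most abundant (221, 203, 204 and 188 CPM). The 5 plasma cell markers summed to 127, 111, 119 and 105 CPM, and the 6 NK cell markers to 44.4, 59.0, 67.1 and 51.2 CPM. The 7 erythroid markers summed to 67.2, 36.0, 7.17 and 197 CPM. No marker of these lists was at 0 in all libraries, and only the B cell sum had both *Bcl3*-/- libraries on one side of both WT libraries, below them. The part of these cells in the *Cd3e* difference was not tested.

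Transcripts whose levels followed the chains across states were identified as a description. Over 20 sums of 4 libraries and 5 states, centred within each library, the mean of the 6 chains was correlated with each of 4995 other genes; the sums share libraries, so no p is given. The highest Pearson correlations were with *Spata6* (0.948), *Sdcbp2* (0.939), *Ms4a6b* (0.922), *Ms4a4b* (0.917) and *Sash3* (0.915), and the lowest with *Pgp* (-0.931), *Tgfb1* (-0.905), *Cdk2ap2* (-0.898), *Ube2e3* (-0.898) and *Mpp1* (-0.896). Among the chains themselves *Cd3g* and *Cd3d* were most alike (0.914), followed by *Cd3e* and *Cd8b1* (0.868), whereas *Cd247* and *Cd8b1* were at -0.01.

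Other genes of the pathway were read from the same fit in T cell clusters, and 0 of them were called without the block. Over all 11092 genes tested, 13.9% had an unadjusted p under 0.05, the share beside which the counts of the 4 lists stand. Of 8 tested receptor partners and coreceptors of other lineages, 0 passed and 2 had an unadjusted p under 0.05. These were *Cd27*, a costimulatory receptor (247, 234, 293 and 327 CPM, edgeR log2 0.35, adjusted p = 0.220, with the block 0.000345), and *Ptcra*, the pre-T cell receptor α chain, at most 1.44 CPM in any library. Of 18 proximal signalling genes, 0 passed and 3 had an unadjusted p under 0.05. *Plcg1*, the phospholipase that links the receptor to calcium, was at 21.3, 22.2, 26.7 and 34.2 CPM (edgeR log2 0.47, adjusted p = 0.194, with the block 0.00295). *Tespa1*, an adaptor needed in thymocyte selection, was at 36.7, 33.1, 28.0 and 21.8 CPM (edgeR log2 -0.50, adjusted p = 0.265, with the block 0.000638). The kinases *Lck* (0.04) and *Zap70* (-0.09), named for their role, had log2 differences that were not called.

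Of 14 negative regulators, 0 passed and 2 had an unadjusted p under 0.05: *Csk*, the kinase that restrains Lck (161, 159.6, 186 and 191 CPM, edgeR log2 0.22, adjusted p = 0.338, with the block 0.0269), and *Cbl*, a ubiquitin ligase (21.6, 20.9, 25.4 and 26.6 CPM, edgeR log2 0.28, adjusted p = 0.312). Of 16 transcription factors known to act at these loci, 0 passed and 3 had an unadjusted p under 0.05. *Tox*, a factor of exhausted and developing T cells, was at 38.4, 37.3, 25.3 and 17.9 CPM (edgeR log2 -0.81, adjusted p = 0.161, with the block 4.61e-07). *Ets1*, a factor of the ETS family, was at 179, 147, 209 and 246 CPM (edgeR log2 0.46, adjusted p = 0.227, with the block 3.15e-05). A link between its level and that of *Cd3e* was not tested. The estimate was positive for 15 of these 16 genes, with a median of 0.13 on the log2 scale, against 0.01 over all genes tested. The share of positive estimates over all genes is not given here, and whether these genes moved as a set was not tested. Medians of the other lists were -0.05, 0.05 and 0.02 for receptor partners, proximal signalling and negative regulators, and -0.05 for the 6 chains. With the block the numbers higher and lower were 1 and 0, 2 and 2, 1 and 0, and 2 and 1 in the 4 lists, at a background of 12.9%.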

How the data were processed

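Raw UMI counts per gene and barcode of 4 libraries were used as deposited by the authors, who prepared 10x Genomics 3′ libraries (version 2), sequenced them with paired-end reads and counted them with Cell Ranger 2.2.0 after bcl2fastq 2.17; the submitters' processing notes name mm10. The deposited counts are not normalized and list all barcodes. Barcodes with 500 or more genes and no more than 10% of UMIs from mitochondrial genes were kept as cells, following the study's methods, and no doublet caller was run. The libraries held 20358780 to 22922219 UMIs. Each library was clustered with Seurat 5.3.0 (2000 variable genes, 15 principal components, 20 neighbours, resolution 0.8). Naming a cluster required 3 markers of a list that were 2-fold up and present in 10% of its cells, of which 1 had to be among the 10 leading genes, and clusters under 1% were left out. These rebuilt clusters may differ from those of the study. Counts were summed per library and compared by the quasi-likelihood test of edgeR 4.0.16 after filterByExpr and TMM scaling, with p-values adjusted over all tested genes by Benjamini-Hochberg, with DESeq2 1.42.0 as an alternative; the scripts were tested on simulated data. Library scaling by TMM is in the tests, while CPM values are plain unless called normalized. State contrasts used genes of at least 20 CPM and a prior count of 0.5. Shares have exact Clopper-Pearson 95% intervals. GENCODE vM21 matched 27645 of 27998 identifiers. Libraries of 1 number come from the same chimera per the labels, which pairs them; across 11566 genes the differences WT1 minus WT2 and KO1 minus KO2 had a Pearson correlation of 0.146. The blocked fit was therefore run beside the unblocked one. Named genes were the chains, *Bcl3* and the 5 most and least alike genes. From each pathway list the genes that passed were named, or else the 2 with the lowest p. Also named were *Lck*, *Zap70*, *Cd4*, genes that overlap the chains, and tested genes near *Cd3e*. Others were markers of clusters or cell types, and abundant genes that differed at least as far as *Cd3e*. The members, lists and rules were chosen with earlier results of these data known.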

Additional observations from a re-analysis of the deposited data

Results flagged for a closer look

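The *Cd8a* estimates of *Bcl3*-/- against WT had opposite signs in different states, with both chimeras on the same side in 3 of them. They were positive in terminal effector-like clusters (log2 0.07 in chimera 1 and 0.36 in chimera 2), and negative in MPEC-gene clusters (-0.29 and -0.28) and in unnamed effector clusters (-0.18 and -0.04). In cycling (-0.18 and 0.01) and interferon-stimulated clusters (-0.33 and 0.11) the chimeras differed in sign. The mean log2 differences stood 0.50 and 0.32 apart. None of these differences within a state was called (edgeR adjusted p of 0.694 in terminal effector-like, 0.726 in MPEC-gene and 0.688 in unnamed effector clusters, and 0.407, 0.315 and 0.385 with the block). The difference between states was not tested. In MPEC-gene clusters the 6 markers of CD4 T cells summed to 155 and 151 CPM in WT and 195 and 187 CPM in *Bcl3*-/-. The sort for CD8+ cells should leave CD4 T cells out. The part of any such cells in the lower *Cd8a* of MPEC-gene clusters was not tested.

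Barcodes that did not pass as cells carried the same chains. In them *Cd3e* was at 353 and 313 CPM in WT and 681 and 776 CPM in *Bcl3*-/-, a mean log2 difference of 1.13 over the 2 chimeras. *Cd8b1* was at 1611 and 1271 CPM against 2066 and 1949.6 CPM, a mean log2 difference of 0.49. *Cd3g* and *Cd3d*, measured in the same barcodes, stood at -0.09 and 0.06, *Cd247* at 0.22 and *Cd8a* at 0.10; of these 4, *Cd3g* alone differed in sign between the chimeras.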

How the results depend on the processing

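Over all cells 42 genes were called between genotypes by edgeR, 209 by DESeq2, 101 with equal numbers of cells thinned to 1000 UMIs, 80 by library totals without TMM, and 40 to 228 with 1 library left out. With the replicate block (chimera), which pairs libraries of the same animal, 1116 were called; that block changed no call among the 6 chains in T cell clusters or over all cells and made *Bcl3* a called gene. The count of chains called in T cell clusters, 1, became 0 with mitochondrial UMIs limited to 5%, with 30 principal components, with no filter on low counts, and within cycling or unnamed effector clusters alone, and 0 to 1 with 1 library left out; over all cells it was also 0 to 1. It was 0 without WT2 and without KO2. The cause was not tested. With 1 library left out, the log2 difference in T cell clusters ran from 0.81 to 1.09 for *Cd3e*, -0.14 to -0.04 for *Cd3g*, -0.15 to 0.0048 for *Cd3d*, -0.087 to 0.024 for *Cd247*, -0.16 to -0.0041 for *Cd8a*, 0.06 to 0.25 for *Cd8b1* and -1.62 to 0.79 for *Bcl3*; over all cells it ran from -0.18 to 0.0066 for *Cd3d*, -0.11 to 0.014 for *Cd247* and -1.30 to 0.70 for *Bcl3*. Direction also turned within single states, without and with the block: *Cd247* was at 0.015 and 0.016 in interferon-stimulated and 0.077 and 0.071 in terminal effector-like clusters, *Cd8a* at 0.18 and 0.19 in terminal effector-like clusters, and *Bcl3* at 0.58 and 0.53 in MPEC-gene clusters. The *Cd8a* to *Cd8b1* difference ran from -0.26 to -0.22 with 1 library left out, and the count of chains past 1.5-fold by state was 0 under every alternative run. The planned comparisons of *Trbc1* with *Trbc2* were not run, since neither gene was matched. Among the T cell classes, MPEC-gene clusters in KO1 had the fewest cells, 125. For the *Cd8a* to *Cd8b1* difference the replicate block (chimera) gives -0.24 by construction, the same as without it.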
